A study of Homo sapiens with 12 samples.

Results

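LSD2, the product of KDM1B, and its paralog LSD1, the product of KDM1A, are flavin-dependent demethylases that remove mono- and dimethyl marks from lysine 4 of histone H3. LSD1 acts in complexes with histone deacetylases, which it reaches through the CoREST scaffolds RCOR1 and RCOR3, whereas LSD2 lacks the tower domain by which LSD1 binds CoREST. LSD2 has instead been found with GLYR1, a nucleosome-binding cofactor, with the H3K9 methyltransferases EHMT1 and EHMT2, and with the H3K36 methyltransferase NSD3. In mouse dendritic cells it has been linked to NF-kB, of which RELA is a subunit. These 8 genes are the paralog KDM1A, its scaffolds, the LSD2 partners and RELA. They are described here by every probe set that named 1 gene alone and named 1 of them. They had 13 such probe sets of 19064 naming 1 gene, out of 22277 on the array, and they stood among 11963 genes.

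RNA was measured on 12 Affymetrix arrays from cells labelled MDA-MB-231, a breast cancer cell line of the triple-negative, mesenchymal kind. The 4 groups of 3 biological replicates were stably transfected with an shRNA against LSD2 (the knockdown), with a scramble shRNA (its control), with an LSD2/eGFP/Flag vector (the overexpression) or with an eGFP/Flag vector (its control). All of them were kept in G418, which kills cells without a construct. Whether a group was 1 clone or a pool is not given in the labels, so groups may also differ as stable lines do, and p-values measure the spread between replicates, which may come from 1 line each. No probe set named KDM1B alone, so neither the knockdown nor the overexpression was checked on its target.

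The 6 shRNA arrays appear to have been normalized apart from the 6 vector arrays, and no level was compared across this divide. The arrays labelled LSD2/eGFP/Flag stood apart. Over probe sets, they correlated with the eGFP/Flag arrays at r from 0.908 to 0.912, against 0.995 to 0.998 between arrays of the same group and 0.991 to 0.994 between LSD2 shRNA and scramble arrays. Of 15 markers of MDA-MB-231 and other mesenchymal breast lines, 14 fell and 1 rose in the LSD2/eGFP/Flag arrays. Their summed linear signal was 11837 to 12972 in the LSD2/eGFP/Flag arrays, against 78181 to 80708 in the eGFP/Flag arrays. In such sums the brightest markers weigh most. Of 11 neuronal and embryonic markers 7 rose and 2 fell, with a summed signal of 8936 to 10110 in the LSD2/eGFP/Flag arrays, against 4452 to 4905 in the eGFP/Flag arrays. Of 13 luminal breast markers 3 rose and 6 fell, with sums of 6840 to 7182 in the LSD2/eGFP/Flag arrays, against 11935 to 13002 in the eGFP/Flag arrays. Of 12 blood and stromal markers 3 rose and 1 fell, with sums of 825 to 933 in the LSD2/eGFP/Flag arrays, against 763 to 834 in the eGFP/Flag arrays. The marker values of the LSD2/eGFP/Flag arrays thus go against the MDA-MB-231 label, and their part in the vector results below was not tested. These 3 arrays are the whole overexpression group, so no vector comparison remains without them. A change in bulk RNA also cannot tell fewer cells of a type apart from less RNA per cell.

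Called were 9 of the 13 probe sets in the vector comparison and 0 in the shRNA comparison, against 54.6% and 8.73% of all. With LSD2 shRNA, 0 of the 13 probe sets were called at a limma adjusted p under 0.05, where 8.73% of all probe sets were (3.93% higher and 4.79% lower). Those calls were 750 higher and 914 lower, and 917 and 688 after a shift of the arrays to equal medians. The differences of the 13 ran from -0.19 to 0.25 on the log2 scale with a median absolute difference of 0.10, against 0.099 over all probe sets. In 3 of the 13 the groups did not overlap, as in 26.2% of all probe sets. By unadjusted limma p, 2 of the 13 lay under 0.05, the brightest GLYR1 probe set and RCOR1. The share of all probe sets under that unadjusted limit is not given here, so this count has no background. With the LSD2/eGFP/Flag vector, 9 of the 13 were called, 7 higher and 2 lower, where 54.6% of all probe sets were called (28.5% higher and 26.1% lower). In 9 of the 13 the groups did not overlap, as in 59.2% of all probe sets. The median difference of the 13 was 0.31, against 0.00 over all probe sets, and the median absolute difference was 0.36, against 0.29. In these medians GLYR1 counts 3 times and EHMT2, NSD3 and RELA 2 times each. By the brightest probe set of each gene the median difference of the members was 0.12. The vector effect differed from the shRNA effect, tested as a difference of the 2, in 8 of the 13 (7 higher, 1 lower), where 47.1% of all probe sets did (25.5% higher and 21.6% lower).

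**Figure D1:**
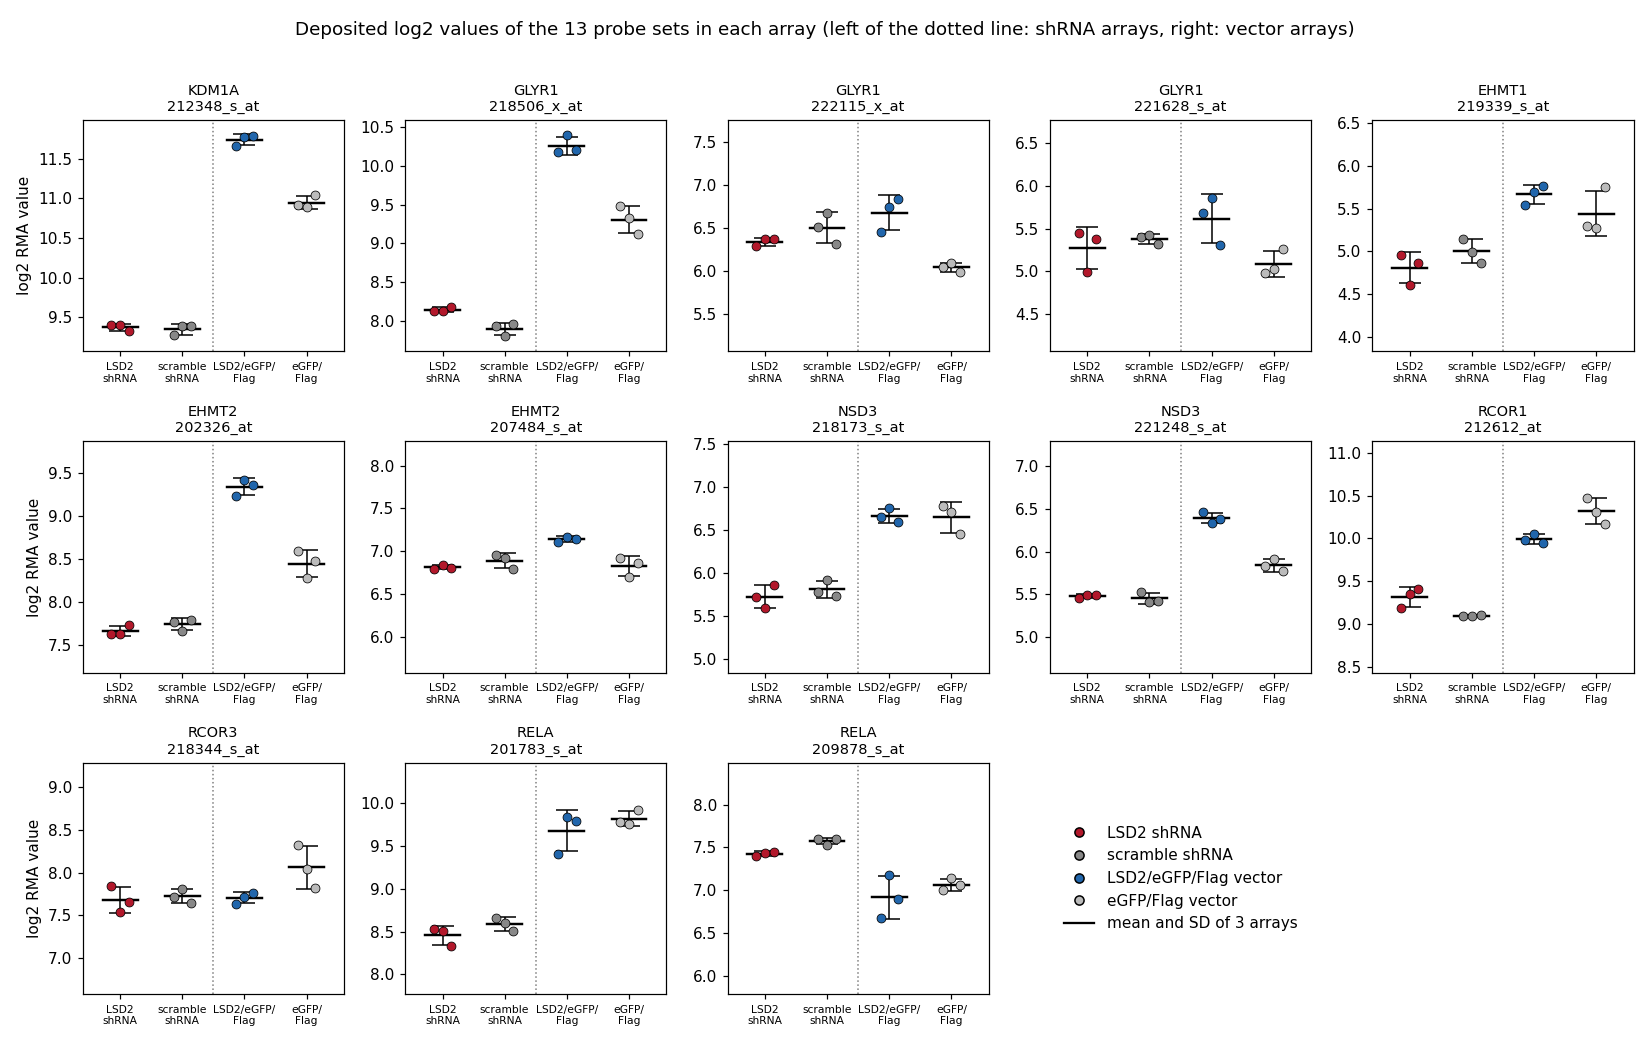
Deposited log2 RMA value (y axis) of each of the 13 probe sets in each array, with the mean and SD of the 3 arrays of a group. LSD2 shRNA and scramble arrays stand left of the dotted line, LSD2/eGFP/Flag and eGFP/Flag arrays right of it, and values are not comparable across it. The groups of the 9 called probe sets do not overlap right of the line.

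The promoters of the 3 genes whose brightest probe set rose (KDM1A, GLYR1, EHMT2) and of the 2 that fell (RCOR1, RCOR3) are shown side by side, as those of the members called by that probe set. They come from RefSeq on GRCh38.p14, as the 250 bases before the start, on the strand of the gene and 5′ to 3′. Of the 8 members 7 were matched, and RCOR3 is listed with a second start not shown. The windows are chr1:23019218-23019467 (plus strand) for KDM1A, chr16:4847289-4847538 (minus strand) for GLYR1, chr6:31897699-31897948 (minus strand) for EHMT2, chr14:102592399-102592648 (plus strand) for RCOR1 and chr1:211259116-211259365 (plus strand) for RCOR3. Capitals mark GC boxes, GGGCGG or its reverse complement CCGCCC, the letters that SP1-like factors bind.
KDM1A: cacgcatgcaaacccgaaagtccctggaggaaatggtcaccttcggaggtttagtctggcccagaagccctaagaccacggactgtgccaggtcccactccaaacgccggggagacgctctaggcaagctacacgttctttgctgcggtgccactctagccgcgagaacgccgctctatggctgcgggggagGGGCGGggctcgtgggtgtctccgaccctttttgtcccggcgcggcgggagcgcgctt
GLYR1: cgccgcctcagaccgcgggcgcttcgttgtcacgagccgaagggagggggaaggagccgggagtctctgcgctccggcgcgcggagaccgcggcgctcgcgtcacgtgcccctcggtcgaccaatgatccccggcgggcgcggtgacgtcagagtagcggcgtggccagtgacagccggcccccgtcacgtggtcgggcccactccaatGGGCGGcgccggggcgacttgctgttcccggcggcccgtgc
EHMT2: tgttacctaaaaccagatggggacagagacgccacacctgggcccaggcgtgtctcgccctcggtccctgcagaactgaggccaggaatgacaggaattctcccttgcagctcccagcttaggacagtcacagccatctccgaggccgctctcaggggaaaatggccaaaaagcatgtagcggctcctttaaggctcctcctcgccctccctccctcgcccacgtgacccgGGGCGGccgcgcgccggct
RCOR1: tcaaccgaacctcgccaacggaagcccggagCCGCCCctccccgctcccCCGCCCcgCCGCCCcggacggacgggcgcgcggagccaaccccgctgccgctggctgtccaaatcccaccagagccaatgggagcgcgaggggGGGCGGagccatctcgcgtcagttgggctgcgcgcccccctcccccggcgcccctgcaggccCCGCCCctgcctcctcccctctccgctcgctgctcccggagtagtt
RCOR3: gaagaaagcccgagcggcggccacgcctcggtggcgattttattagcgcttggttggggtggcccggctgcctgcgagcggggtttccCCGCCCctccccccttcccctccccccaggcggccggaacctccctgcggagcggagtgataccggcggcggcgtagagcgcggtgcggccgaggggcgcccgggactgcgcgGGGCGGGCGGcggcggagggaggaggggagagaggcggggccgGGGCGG
The windows hold 1 GC box in KDM1A, 1 in GLYR1, 1 in EHMT2, 5 in RCOR1 and 4 in RCOR3, overlapping matches counted separately, and 42.6% of 35116 RefSeq promoter windows of the same length hold at least 1. Their GC content is 64.0%, 74.8%, 63.2%, 76.4% and 77.2%, against a median of 58% over all windows. On both strands, CACGTG occurs 2 times in GLYR1 and 1 time in EHMT2 (in 6.34% of all windows), CCAAT 2 times in GLYR1 and 1 time in RCOR1 (32.0%), and the kB letters GGGNNTTCC 1 time in RCOR3 (5.78%). TATAAA (10.7% of all windows) and CCGGAAG (8.52%) were searched too and are not in these 5 windows. A match describes the letters in the window and not a bound site.

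KDM1A, the LSD1 gene, was higher in the LSD2/eGFP/Flag arrays and was not called with LSD2 shRNA. Its probe set 212348_s_at read 11.66, 11.77 and 11.79 in the LSD2/eGFP/Flag arrays, against 10.91, 10.89 and 11.04 in the eGFP/Flag arrays. All 3 LSD2/eGFP/Flag arrays lay above all 3 eGFP/Flag arrays. KDM1A rose by 0.79 ± 0.07 (log2 difference ± SE, n = 3 per group, limma adjusted p 4.27e-07), which is 1.73-fold. It read 9.40, 9.40 and 9.33 in the LSD2 shRNA arrays, against 9.27, 9.39 and 9.39 in the scramble arrays. Those groups overlapped, and the difference was 0.03 ± 0.07 with a 95% interval from -0.13 to 0.18 (limma adjusted p 0.897). The effect of the LSD2 vector on KDM1A exceeded that of LSD2 shRNA by 0.77 (limma adjusted p 2.68e-05). Of all probe sets, 22.8% had a larger absolute difference than KDM1A in the vector comparison and 85.4% in the shRNA comparison.

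The genes whose 12 values ran most like those of KDM1A, after centring on the 6 shRNA and the 6 vector arrays, were REXO2, SYNGR2, SMARCD2, AGPAT2 and PI4KB. Their Euclidean distances to KDM1A were 0.16, 0.16, 0.17, 0.18 and 0.19 log2 units. With the LSD2/eGFP/Flag vector they rose by 0.77, 0.78, 0.71, 0.76 and 0.78, and their shRNA differences were -0.01, -0.03, -0.01, 0.04 and -0.01.

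GLYR1, also known as NPAC, carries a PWWP domain and helps LSD2 act on nucleosomes. All 3 of its probe sets rose with the LSD2/eGFP/Flag vector. The brightest, 218506_x_at, read 10.18, 10.39 and 10.20 in the LSD2/eGFP/Flag arrays, against 9.48, 9.32 and 9.12 in the eGFP/Flag arrays. The groups did not overlap, and the rise was 0.95 ± 0.09 or 1.94-fold (n = 3 per group, limma adjusted p 9.28e-07), the largest of the 13. Probe set 222115_x_at read 6.45, 6.75 and 6.84 in the LSD2/eGFP/Flag arrays, against 6.05, 6.09 and 5.99 in the eGFP/Flag arrays, a rise of 0.64 ± 0.11 (limma adjusted p 1.60e-04). Probe set 221628_s_at, among the 33.3% dimmest on the array, read 5.69, 5.86 and 5.31 in the LSD2/eGFP/Flag arrays, against 4.98, 5.03 and 5.26 in the eGFP/Flag arrays, a rise of 0.53 ± 0.14 (limma adjusted p 0.00644). In each of the 3 probe sets, every LSD2/eGFP/Flag array was above every eGFP/Flag array.

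With LSD2 shRNA the GLYR1 probe sets did not point the same way. Probe set 218506_x_at read 8.12, 8.13 and 8.18 in the LSD2 shRNA arrays, against 7.93, 7.80 and 7.95 in the scramble arrays. These groups did not overlap, and the difference of 0.25 ± 0.09 did not pass (limma p 0.0198, adjusted p 0.134). The differences were -0.16 ± 0.11 for 222115_x_at (limma adjusted p 0.448) and -0.10 ± 0.14 for 221628_s_at (limma adjusted p 0.767), with overlapping groups. When all probe sets of a gene were averaged first, the GLYR1 difference was -0.01 (limma adjusted p 0.978). By the array's naming, the ending _x_at marks probes that may also bind other transcripts. The vector effect exceeded the shRNA effect in all 3 probe sets, by 0.71, 0.80 and 0.63 (limma adjusted p 0.000530, 0.000595 and 0.0199). For 221628_s_at this call rested on LSD2/eGFP/Flag replicate 2, without which the excess was 0.51 (limma adjusted p 0.0507).

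GLYR1 lies on chromosome 16, and most measured genes around it rose as well. Of the 10 measured genes nearest to it, 5 on each side, 8 rose and 0 fell with the LSD2/eGFP/Flag vector, with a median difference of 0.63. Over all 524 measured genes of chromosome 16, 51.5% rose and 12% fell, against 30.8% and 25.8% of all genes. Around KDM1A 5 of 10 neighbours rose and 1 fell, and around EHMT2 5 rose and 3 fell, with median differences of 0.23 and 0.21. The part of the neighbourhood in these rises was not tested.

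The H3K9 methyltransferases EHMT1 (GLP) and EHMT2 (G9a) form a complex with each other. EHMT2 probe set 202326_at read 9.24, 9.43 and 9.37 in the LSD2/eGFP/Flag arrays, against 8.59, 8.27 and 8.47 in the eGFP/Flag arrays. The groups were well apart, and EHMT2 rose by 0.90 ± 0.09 (n = 3 per group, limma adjusted p 9.72e-07). Its other probe set, 207484_s_at, read 7.10, 7.17 and 7.15 in the LSD2/eGFP/Flag arrays, against 6.92, 6.70 and 6.86 in the eGFP/Flag arrays, a smaller rise of 0.31 ± 0.08 (limma adjusted p 0.00270). Both EHMT2 probe sets differed by -0.08 with LSD2 shRNA, with overlapping groups (limma adjusted p 0.700 and 0.658). The vector effect on EHMT2 exceeded the shRNA effect by 0.98 and 0.39.

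EHMT1 was read by a single dim probe set, 219339_s_at. It stood at 5.54, 5.69 and 5.76 in the LSD2/eGFP/Flag arrays, against 5.30, 5.28 and 5.75 in the eGFP/Flag arrays. eGFP/Flag replicate 3 alone overlapped the LSD2/eGFP/Flag arrays, and the difference of 0.22 ± 0.13 did not pass (limma adjusted p 0.180). Without that array the difference was 0.38 and was called (limma adjusted p 0.0153). In the LSD2 shRNA arrays EHMT1 read 4.96, 4.61 and 4.87, against 5.15, 5.0 and 4.87 in the scramble arrays, a difference of -0.19 ± 0.13 (limma adjusted p 0.470). The 2 effects on EHMT1 differed by 0.41 (limma adjusted p 0.0876), and by 0.57 without eGFP/Flag replicate 3 (limma adjusted p 0.00921).

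NSD3 is made as a long form with the methyltransferase domain and a short form without it, and which form each probe set reads is not given in the sources used here. Its 2 probe sets disagreed. Probe set 221248_s_at, also among the dimmest, read 6.46, 6.34 and 6.38 in the LSD2/eGFP/Flag arrays, against 5.83, 5.92 and 5.77 in the eGFP/Flag arrays, a rise of 0.55 ± 0.07 (limma adjusted p 9.52e-06). Probe set 218173_s_at read 6.65, 6.76 and 6.59 in the LSD2/eGFP/Flag arrays, against 6.78, 6.71 and 6.45 in the eGFP/Flag arrays. These groups overlapped, with a difference of 0.02 ± 0.10 (limma adjusted p 0.895). Counted by its brightest probe set NSD3 was thus not called, whereas the mean of its probe sets gave 0.29 and a call (limma adjusted p 0.00293). With LSD2 shRNA the differences were 0.03 ± 0.07 and -0.09 ± 0.10, in the same order (limma adjusted p 0.877 and 0.707).

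The CoREST scaffolds of LSD1 were the members that fell with the LSD2/eGFP/Flag vector, opposite to KDM1A. RCOR1 probe set 212612_at read 9.97, 10.05 and 9.94 in the LSD2/eGFP/Flag arrays, against 10.48, 10.31 and 10.17 in the eGFP/Flag arrays. The groups did not overlap, and RCOR1 fell by 0.33 ± 0.09 on the log2 scale, to 0.796-fold (n = 3 per group, limma adjusted p 0.00494). With LSD2 shRNA RCOR1 read 9.19, 9.35 and 9.41 in the LSD2 shRNA arrays, against 9.10, 9.09 and 9.10 in the scramble arrays. All 3 LSD2 shRNA arrays were above the scramble arrays, by 0.22 ± 0.09 on average, which did not pass (limma adjusted p 0.151). The vector effect on RCOR1 was below the shRNA effect by -0.55 (limma adjusted p 0.00195).

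RCOR3 probe set 218344_s_at read 7.63, 7.72 and 7.76 in the LSD2/eGFP/Flag arrays, against 8.32, 8.04 and 7.82 in the eGFP/Flag arrays. The groups lay close but did not overlap, and RCOR3 fell by 0.36 ± 0.12 on the log2 scale (limma adjusted p 0.0182). The call was lost without eGFP/Flag replicate 1 (-0.23, limma adjusted p 0.0921) and without LSD2/eGFP/Flag replicate 1 (-0.32, limma adjusted p 0.0631). With LSD2 shRNA RCOR3 differed by -0.04 ± 0.12 (limma adjusted p 0.891). The 2 effects differed by -0.31 (limma adjusted p 0.143), and by -0.43 without eGFP/Flag replicate 3 (limma adjusted p 0.0276).

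RELA, the p65 subunit of NF-kB, was called in neither comparison. Probe set 201783_s_at read 9.40, 9.84 and 9.79 in the LSD2/eGFP/Flag arrays, against 9.78, 9.76 and 9.91 in the eGFP/Flag arrays. Probe set 209878_s_at read 6.68, 7.18 and 6.89 in the LSD2/eGFP/Flag arrays, against 7.0, 7.14 and 7.06 in the eGFP/Flag arrays. Both pairs of groups overlapped. Their vector differences were -0.14 ± 0.11 and -0.15 ± 0.10 (limma adjusted p 0.310 and 0.253). Without LSD2/eGFP/Flag replicate 2, the array highest for this probe set, 209878_s_at differed by -0.28 and was called (limma adjusted p 0.0120). Probe set 209878_s_at read 7.40, 7.44 and 7.45 in the LSD2 shRNA arrays, against 7.60, 7.53 and 7.59 in the scramble arrays. All LSD2 shRNA arrays lay below the scramble arrays there, and the differences were -0.15 ± 0.10 for 209878_s_at and -0.14 ± 0.11 for 201783_s_at (limma adjusted p 0.472 and 0.557). Of the 10 measured genes nearest to RELA on chromosome 11, 6 fell and 0 rose with LSD2 shRNA, with a median difference of -0.28, where 13.7% of the 732 measured genes of chromosome 11 fell and 2.19% rose. The part of that neighbourhood in the RELA values was not tested.

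**Figure D2:**
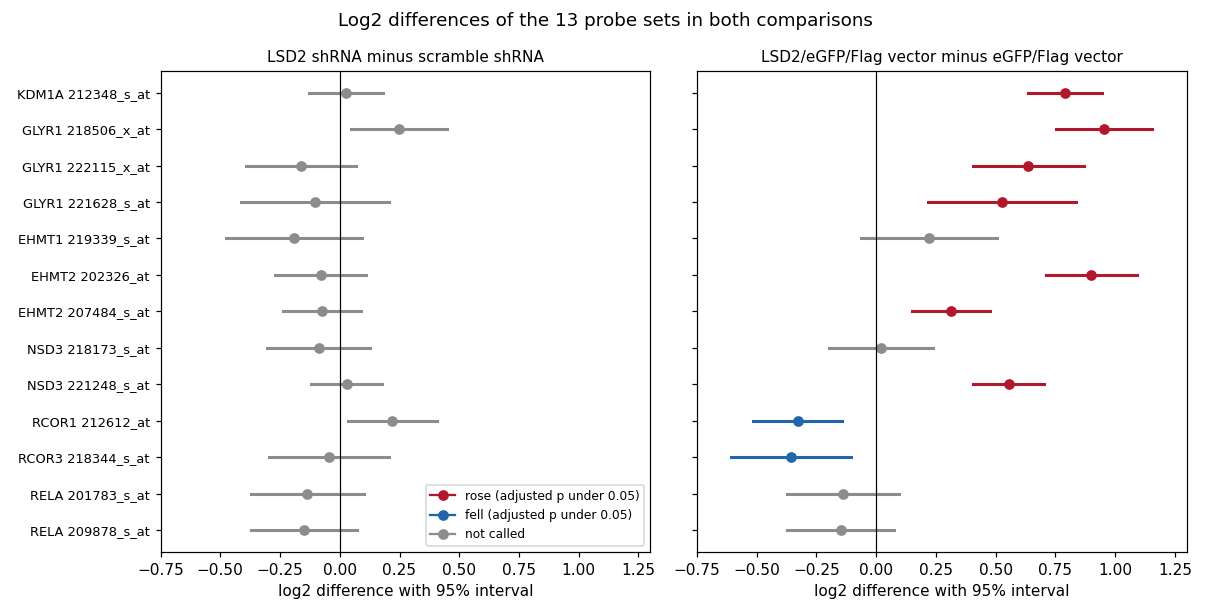
Log2 difference (x axis) of each probe set with its 95% interval from the fit, LSD2 shRNA minus scramble at left and LSD2/eGFP/Flag minus eGFP/Flag at right. Colour marks the probe sets called at an adjusted p under 0.05, 0 at left and 9 at right, of which only RCOR1 and RCOR3 are lower.

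**Figure D3:**
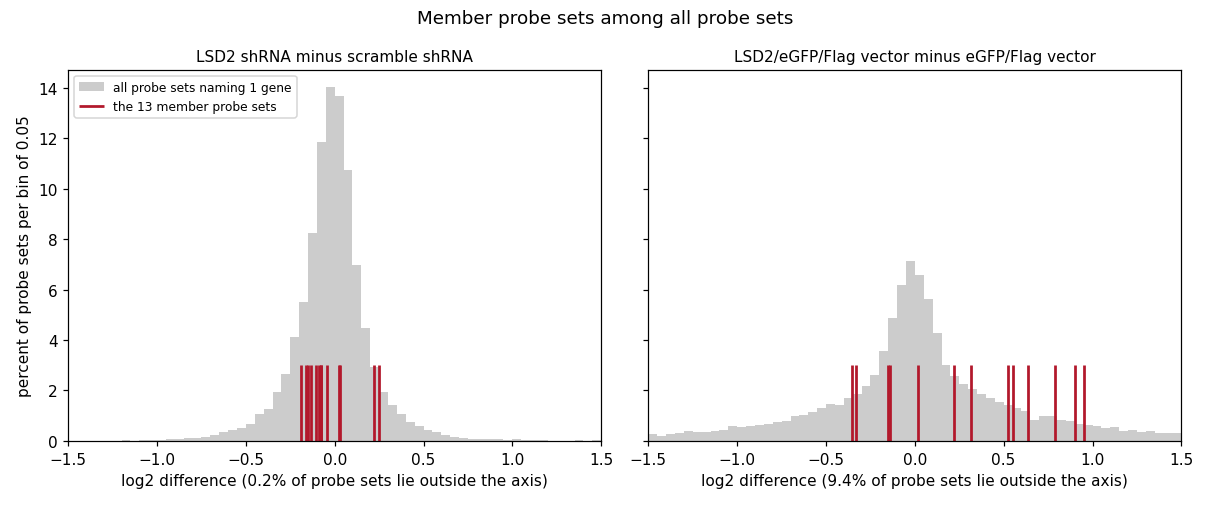
Distribution of log2 differences over all 19064 probe sets naming 1 gene (grey, percent of probe sets per bin of 0.05), with the 13 probe sets as red lines, for LSD2 shRNA minus scramble (left) and LSD2/eGFP/Flag minus eGFP/Flag (right). The axis stops at 1.5 on either side, and 0.152% and 9.41% of probe sets lie beyond it. The red lines run from -0.19 to 0.25 at left and from -0.36 to 0.95 at right.

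Around the members stand the other genes of their pathways, 117 measured of 139 listed, each read by its brightest probe set. By that measure 3 of the 8 members rose, 2 fell and 3 were not called with the LSD2/eGFP/Flag vector, where 56.6% of all genes were called (30.8% higher, 25.8% lower). Of the 8, 0 were called with LSD2 shRNA, where 9.82% of all genes were (4.66% higher, 5.17% lower). The median difference of the 8 members was 0.12 in the vector comparison and -0.062 in the shRNA comparison, against 0.012 and -0.0052 over all genes.

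Of the other 19 measured genes of the LSD1-CoREST-deacetylase complex and its recruiters, 11 rose and 3 fell with the LSD2/eGFP/Flag vector, with a median of 0.62. GSE1, a CoREST complex subunit, rose by 1.79 and MTA1, a subunit of the NuRD deacetylase complex, by 1.23 (its other probe set by 0.62), while ZNF217, a zinc finger protein that recruits CoREST, fell by 1.21 on the log2 scale. Of the G9a/GLP partners and other H3K9 methylation genes, 12 of 17 rose and 2 fell, with a median of 0.35. There the H3K9 methyltransferase SETDB1 rose by 1.12 and the H3K9 demethylase KDM4C by 1.10, while ATF7IP, the partner of SETDB1, fell by 1.36. The other probe sets of KDM4C and ATF7IP gave 0.13 and -0.13. Of the H3K4 writers and other erasers, 6 of 13 rose and 1 fell, with a median of 0.25, among them the menin gene MEN1 (0.87), the demethylase KDM5C (0.61) and the methyltransferase SETD1A (0.60).

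The relatives of NSD3 and GLYR1, the H3K36 and PWWP genes, were divided, with 4 of 17 higher, 6 lower and a median of -0.05 with the LSD2/eGFP/Flag vector. The DNA methyltransferase DNMT3B rose by 2.50, while the H3K36 methyltransferase NSD2 fell by 1.82 (its other probe sets at -0.95 and -0.51, the mean of all at -1.09) and the H3K36me3 reader ZMYND11 fell by 1.19. Of the NF-kB subunits, inhibitors and kinases beside RELA, 5 of 15 rose and 7 fell (median -0.18). The inhibitor gene NFKBIE rose by 0.89 and the subunit gene REL by 0.77, and MAP3K14, the NF-kB-inducing kinase, fell by 0.89. Of 19 described RELA target genes 8 fell and 0 rose (median -0.12), with the cyclooxygenase PTGS2 at -4.27, TNFAIP2 at -2.23 (its other probe set at -0.09) and the chemokine CXCL2 at -1.38. By the mean over all 12 arrays, PTGS2, CXCL2, REL and AFF4 were read by probe sets among the dimmest 33.3%. REL was not dim in the vector arrays alone. It averaged 7.23 in the LSD2/eGFP/Flag arrays and 6.46 in the eGFP/Flag arrays, where the medians of the arrays were 7.03 to 7.18. PTGS2 averaged 3.63 in the LSD2/eGFP/Flag arrays, whose lowest values were 3.09 to 3.17, against 7.89 in the eGFP/Flag arrays, so the size of its fall is uncertain. Of 19 genes listed as elongation factors 3 rose and 9 fell (median -0.20). That list also holds ELAVL1, the gene of an RNA-binding protein, which was not called. AFF4 and ELL2, of the super elongation complex, fell by 1.01 and 0.96 (other ELL2 probe set -0.10), and HEXIM1, which holds P-TEFb inactive, rose by 1.42, with its other probe set at -0.78. All 21 of these named vector calls were kept when any 1 array was left out.

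With LSD2 shRNA, 16 named pathway genes were called, and 4 of them kept the call whichever array was left out. These were the NF-kB target CCL2, a monocyte chemokine (-1.67 ± 0.13, limma adjusted p 1.55e-05), CHUK, the IKK-alpha kinase (0.51 ± 0.08, limma adjusted p 0.00227), POLR2A, the largest polymerase subunit (-0.57 ± 0.12, limma adjusted p 0.00897, its other probe sets at -0.38 and -0.10), and PHF21A, the reader of unmethylated H3K4 in the LSD1 complex (-0.58 ± 0.12, limma adjusted p 0.00998). With the mean of all its probe sets POLR2A was at -0.35 (limma adjusted p 0.0344). CCL2, PTGS2 and SETMAR were read by probe sets among the dimmest 33.3%. The other 12 lost it without at least 1 array. TNFAIP3 (0.49, its other probe set at 0.19) lost it without LSD2 shRNA replicate 3 (0.44). The calls of KDM5B (-0.67) and NSD2 (0.35) were lost without scramble replicate 2 and, for KDM5B, LSD2 shRNA replicate 1 (-0.54 at the least) or, for NSD2, LSD2 shRNA replicate 3 (0.30 at the least). Those of REST (0.42, its other probe set at 0.08) and SETMAR (0.53) were lost without LSD2 shRNA replicate 1 or either of scramble replicates 1 and 2 (0.31 and 0.36 at the least). PTGS2 (1.00) lost it without scramble replicate 1 or LSD2 shRNA replicate 1 or 2 (0.85 at the least), and KDM4B (-0.59, its other 4 probe sets from -0.72 to -0.04) without scramble replicate 2 or LSD2 shRNA replicate 1 or 3 (-0.46 at the least). MAP3K7 (0.31, its other 3 probe sets from 0.07 to 0.12) lost it without scramble replicate 3 or LSD2 shRNA replicate 1 or 3 (0.28 at the least), CBX3 (0.29) without scramble or LSD2 shRNA replicate 1, scramble replicate 2 or LSD2 shRNA replicate 3 (0.25 at the least), and KDM4A (-0.32, its other probe set at -0.05) without replicate 1 or 2 of either group (-0.27 at the least). ZMYND11 (-0.41) lost it without any array of these groups but LSD2 shRNA replicate 3 (-0.35 at the least), and HDAC2 (0.23) without any of the 6 or LSD2/eGFP/Flag replicate 1 or 3 (0.20 at the least). With the mean of all probe sets, the calls of MAP3K7 (0.14, limma adjusted p 0.216), KDM4A (-0.18, limma adjusted p 0.114) and ZMYND11 (-0.40, limma adjusted p 0.0784) were lost. REST and KDM4B were then at 0.25 and -0.38 and kept the call.

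By list, LSD2 shRNA called 2 higher and 1 lower of the 19 LSD1-CoREST genes (median -0.01) and 1 higher and 2 lower of the 17 H3K9 genes (-0.05). It called 2 higher and 2 lower of the 17 H3K36 and PWWP genes (-0.02), and 1 lower of the 13 H3K4 genes (-0.07). It called 2 higher of the 15 NF-kB genes (-0.01), 2 higher and 2 lower of the 19 RELA targets (0.04), and 1 lower of the 19 genes of the elongation list (-0.05). These counts rest on few arrays. Without scramble replicate 1 they were 1, 1 and 1 for the LSD1-CoREST, H3K9 and H3K36 genes and 2 for the RELA targets. Without scramble replicate 2 they were 1, 0, 0 and 0 for the LSD1-CoREST, H3K9, H3K36 and H3K4 genes, and without scramble replicate 3 the NF-kB count was 1. Without LSD2 shRNA replicate 1 they were 1, 0, 1, 0, 1 and 2 in the order above, elongation factors aside. Without LSD2 shRNA replicate 2 the H3K36 count was 2, and without replicate 3 the H3K9 and NF-kB counts were 1 each. Cell type markers moved too with LSD2 shRNA, and those named were chosen after their values were seen. Of 13 luminal markers 3 rose (FOXA1 by 0.74, XBP1 by 0.61 and EPCAM by 0.57), while their summed signal was 9219 to 9994 in the LSD2 shRNA arrays, against 10513 to 10986 in the scramble arrays. KRT18, the brightest of these markers, weighs most in that sum and was not called (-0.25, limma adjusted p 0.0615). Of 12 blood and stromal markers PECAM1 (0.92) and LYZ (0.35) rose and CD14 (-0.29) fell, with sums of 912 to 930 in the LSD2 shRNA arrays, against 794 to 889 in the scramble arrays. PECAM1, LYZ and CD14 were each read by a probe set among the dimmest 33.3%, and the other probe sets of PECAM1 are not given here. Of 11 neuronal and embryonic markers 0 were called, with sums of 3879 to 4044 in the LSD2 shRNA arrays, against 4172 to 4426 in the scramble arrays. Of 15 markers of mesenchymal breast lines 1 rose and 1 fell, with sums of 57537 to 60169 in the LSD2 shRNA arrays, against 57828 to 62484 in the scramble arrays. The part of these markers in the pathway calls was not tested.

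**Figure D4:**
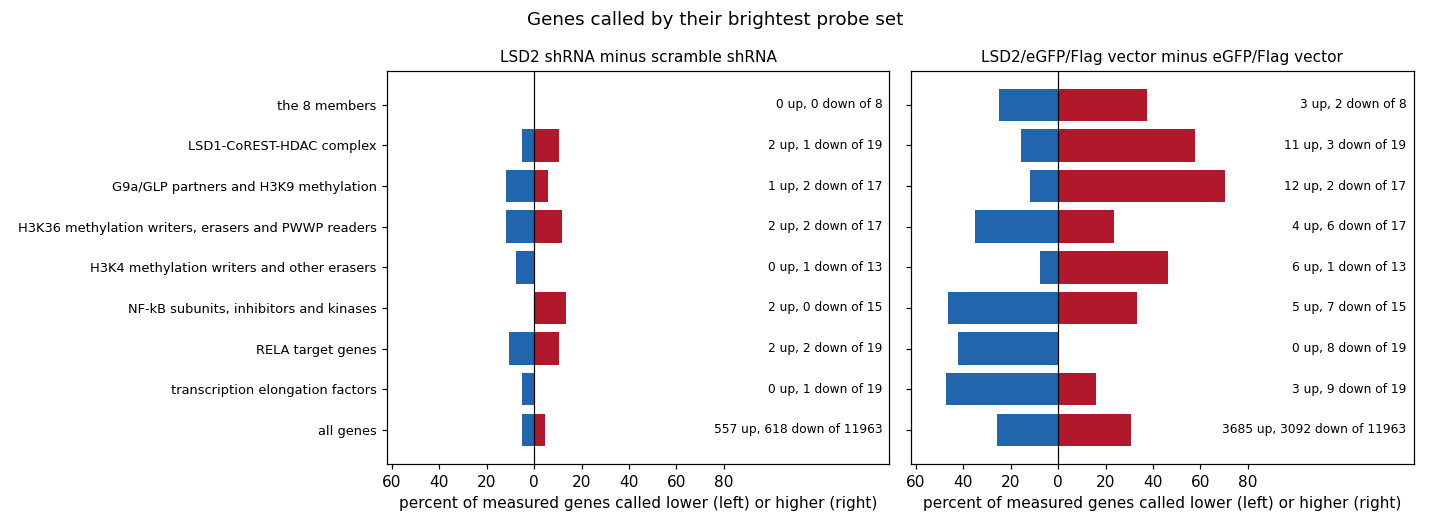
Percent of measured genes called higher (right of 0) or lower (left of 0) by the brightest probe set, for the 8 members, the 7 pathway lists and all genes, with LSD2 shRNA minus scramble at left and LSD2/eGFP/Flag minus eGFP/Flag at right. The members have 0 calls at left, and 3 higher and 2 lower at right.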

How the data were processed

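Gene expression was measured on 12 Affymetrix arrays, 4 groups of 3. The authors deposited log2 values made with RMA, per the submitters' processing notes, a method that corrects background, normalizes and summarises probe sets. Its software is not given in the sources used here. Medians of the deposited log2 values were 6.65 to 6.71 in the shRNA arrays and 7.03 to 7.18 in the vector arrays, so each set was taken to have its own normalization. RMA gives no detection call, and precision is limited by the number of arrays. Levels of different probe sets were ranked to pick the brightest of a gene and the dimmest 33.3% of all, by the mean over all 12 arrays. They were also summed over the marker lists.

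Names came from GEO's platform annotation, which may be out of date. Of 22277, 62 were controls, 1043 named several genes and 2108 none. Of the 19064 naming 1 gene, 19052 were updated through a RefSeq gene table (GRCh38.p14), which also gave the order of genes, and 12 kept their name. The test was limma 3.58.1 under R 4.3.3 (lmFit and eBayes on all 12 arrays, two-sided, 8 residual and 4.95 prior degrees of freedom), Benjamini-Hochberg adjusted over all 19064 and called under 0.05. The fit was tested on simulated data. An exact permutation test of 3 arrays against 3 cannot go below p = 0.1 and was not used.

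Named genes were every member, up to 3 called genes per pathway list and comparison with the largest differences, and the 5 genes nearest to KDM1A. The members and lists were chosen with earlier results of these data known. Alternatives were cyclic loess, equal medians, array weights, an intensity trend, a replicate block, the compared groups alone, leaving out the dimmest 33.3%, 1 value per gene, a threshold of 0.01 and leaving out each array.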

Additional observations from a re-analysis of the deposited data

Results flagged for a closer look

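For 8 of the 13 probe sets the effect of the LSD2/eGFP/Flag vector differed from that of LSD2 shRNA in a test of the difference itself (limma, adjusted p under 0.05), where 47.1% of all probe sets did. The vector effect minus the shRNA effect, on the log2 scale, was 0.77 for KDM1A. It was 0.71, 0.80 and 0.63 for the GLYR1 probe sets 218506_x_at, 222115_x_at and 221628_s_at. It was 0.98 and 0.39 for the EHMT2 probe sets 202326_at and 207484_s_at, 0.52 for NSD3 221248_s_at and -0.55 for RCOR1. RCOR1 is the only one of the 8 whose vector effect lay below its shRNA effect. The part of the LSD2/eGFP/Flag arrays' marker values in these differences was not tested.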

How the results depend on the processing

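Of 806 re-computed member values 793 kept their side of the threshold, 5 lost the call and 8 gained it. Of the values with a call, 0 turned round. An uncalled value that changed sign and stayed uncalled counts as kept, as for the averaged GLYR1 probe sets with LSD2 shRNA. By this count 31 of 39 member results never changed. Of 807 pathway gene values 740 kept theirs and 67 lost the call. Many values in both counts could hardly change, so the share kept does not measure how robust a result is. Leaving out an array outside the compared groups keeps the difference and alters only the estimate of the spread. A threshold of 0.01 cannot add a call. Members called in the shRNA comparison stayed at 0 in every alternative, and in the vector comparison they were 8 to 10 of 13 when 1 array was left out. In the main fit 54.6% of all probe sets were called in the vector comparison. Their share without each array is not given here, so the range has no background.

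The 1664 probe sets called with LSD2 shRNA were 2957 with array weights, 713 at a threshold of 0.01 and 929 to 1791 when 1 array was left out (929 without scramble replicate 1, 1030 without scramble replicate 2, 933 without LSD2 shRNA replicate 1). With equal medians 917 were higher and 688 lower, against 750 and 914, so the majority direction depends on the scaling. The shRNA counts of the lists moved as follows. Compared groups alone gave 1 for the LSD1-CoREST, 1 for the H3K9 and 2 for the RELA target genes. The mean of all probe sets gave 5 for LSD1-CoREST, 2 for H3K36, 2 for H3K4, 1 for NF-kB and 2 for elongation. Array weights gave 5 for LSD1-CoREST, 3 for H3K4 and 7 for RELA targets. The threshold of 0.01 gave 1, 0, 0, 0, 1 and 1 for LSD1-CoREST, H3K9, H3K36, H3K4, NF-kB and RELA targets. Equal medians gave 2 for H3K36, and leaving out the dimmest 33.3% gave 2 for H3K4 and 2 for RELA targets. Leaving out 1 array gave 1 to 3, 0 to 3, 0 to 4, 0 to 1, 1 to 2 and 2 to 4 for the same 6 lists. In the vector comparison, leaving out the dimmest 33.3% gave 4 called RELA targets, against 8. The cause of these moves was not tested.

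With the replicate number as a block, 2099 probe sets were called with LSD2 shRNA and 10554 with the LSD2/eGFP/Flag vector, with 0 and 9 member probe sets as before, and EHMT1 gained the call for the difference between the effects (limma adjusted p 0.0346). Deviations of same-numbered arrays correlated at 0.0025, 0.46 and 0.38 in the shRNA and -0.16, 0.14 and 0.15 in the vector comparison. Between arrays of unlike number they ran from -0.44 to 0.095 and from -0.23 to 0.085. Deviations from a group mean cancel within the group, so these correlations are not independent of each other. In the shRNA arrays they mostly reflect the contrast of replicates 2 and 3, which ran the same way in both groups. The main fit does not use this. What the numbers stand for beyond biological replicates is not given in the labels. Settings with 1 value per gene give no count of probe sets, and the compared groups alone give no difference between the effects.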

Other observations

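A further probe set, 212414_s_at, names GLYR1 together with SEPTIN6 and was left out of the results. It read 11.51, 11.30 and 11.75 in the LSD2/eGFP/Flag arrays, against 9.43, 9.13 and 9.73 in the eGFP/Flag arrays, a difference of 2.09 on the log2 scale. The 3 probe sets naming GLYR1 alone rose by 0.53 to 0.95. It read 8.32, 8.48 and 7.93 in the LSD2 shRNA arrays, against 8.19, 8.61 and 7.81 in the scramble arrays, a difference of 0.04. No test was made on it.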
